A study of Rattus norvegicus with 18 samples.

Results

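The comparison described here set clamped left lungs against the unclamped right lungs of the same operation, both collected 3 h after the clamp was released. Its members were the 6 lungs whose labels name side and reperfusion time, 3 left and 3 right, out of 18 lungs measured, each on 1 array. All lungs came from male Sprague-Dawley rats. The left 3 h group had its hilum clamped for 2 h in place and warm in an anaesthetised, ventilated rat, and blood flow and ventilation were then restored for 3 h. The right 3 h group was the opposite lung, retrieved at the same time and not clamped, in an animal that had been through the same tracheotomy, ventilation, thoracotomy and surgery. Left and right lungs after 30 min of reperfusion (3 each) served to ask how the left-right difference changed with time, and 6 lungs of rats that were not operated on, taken right after sacrifice, served as controls. Every clamped lung was a left lung, so clamp and side cannot be told apart, and no lung was taken before reperfusion, so the clamp and the return of blood cannot be told apart either. The labels do not give the side of the control lungs. In whole lung, fewer cells of a type and less RNA per cell cannot be told apart.

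Warm ischaemia deprives lung tissue of blood flow, and reperfusion returns oxygen, blood cells and mediators to it. Cells whose proteins misfold release the transcription factor HSF1 from its chaperones. HSF1 then binds repeated GAA units, called heat shock elements, upstream of genes for chaperones of the HSP70, HSP40, HSP110, HSP60 and small heat shock protein families. Stress on the endoplasmic reticulum acts through a separate pathway, and AP-1 and NF-kB factors drive early inflammatory genes in lung endothelium, epithelium and macrophages.

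The 6 arrays of the comparison were alike in RNA quality, and the sides did not overlap in cardiac muscle marker signal. Actin signal at the 3′ end over that at the 5′ end, a measure of RNA degradation, was 1.49 to 1.62 in left and 1.42 to 1.78 in right lungs. Median signals were 232 to 261 in left and 247 to 272 in right lungs. Lung identity was present in both: the surfactant gene Sftpc had 11709 to 12215 signal units in left and 12835 to 16252 in right lungs, the club cell gene Scgb1a1 had 10234 to 11214 in left and 11801 to 14626 in right lungs, and the type I cell gene Ager had 5546 to 7606 in left and 6461 to 7150 in right lungs. The summed signal of 28 cardiac muscle markers was 9579 to 10963 in left and 12664 to 29564 in right lungs, and no defining marker was at 0. Left replicate 1 had the highest or lowest left value in several marker summaries. Its lymphocyte (8.74, against 7.79 and 8.27, log2) and macrophage means were the highest and its type I and club cell means the lowest. It lay between the other left lungs for mast cell, cardiac and skeletal muscle markers. Its neutrophil marker mean was the highest (10.2, against 8.91 and 9.39 in the other left lungs, log2) and its alveolar type II mean the lowest (11.2, against 11.8 and 11.9).

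Signals were compared as log2(signal + 25), and a log2 difference below is left minus right. Of 7728 genes tested, 135 were higher in the left lungs (1.75%) and 48 were lower (0.621%) at an adjusted p under 0.05 in limma. The left and right arrays did not overlap for 180 of these 183 genes. Selection by difference over spread favours such genes, and their share among all tested genes is not given, so this count adds no separate support. At an unadjusted p under 0.05, 8.27% of genes were higher and 9.86% lower. The difference was over 2-fold for 48 genes that were higher and 18 that were lower. The median difference of all genes was -0.07. Of 240 called probe sets, 35 had no single gene name and are not named here. Centring each array on its median gave 226 probe sets higher and 40 lower, against 173 and 67 with the authors' scaling. Single lungs decided many calls: 25 genes (0.323% of those tested) were called with all arrays and again without each of the 6 lungs in turn, 23 of them higher and 2 lower. Of 173 higher probe sets, 32 were still called without left replicate 1, 52 without right replicate 1 and 72 without right replicate 2. Of those 25 genes, 7 were called in all 15 alternative settings, namely Hspa1a, Dnaja1, Dnajb1, Hspb1, Hsph1, Hspd1 and P4ha1.

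**Figure D1:**
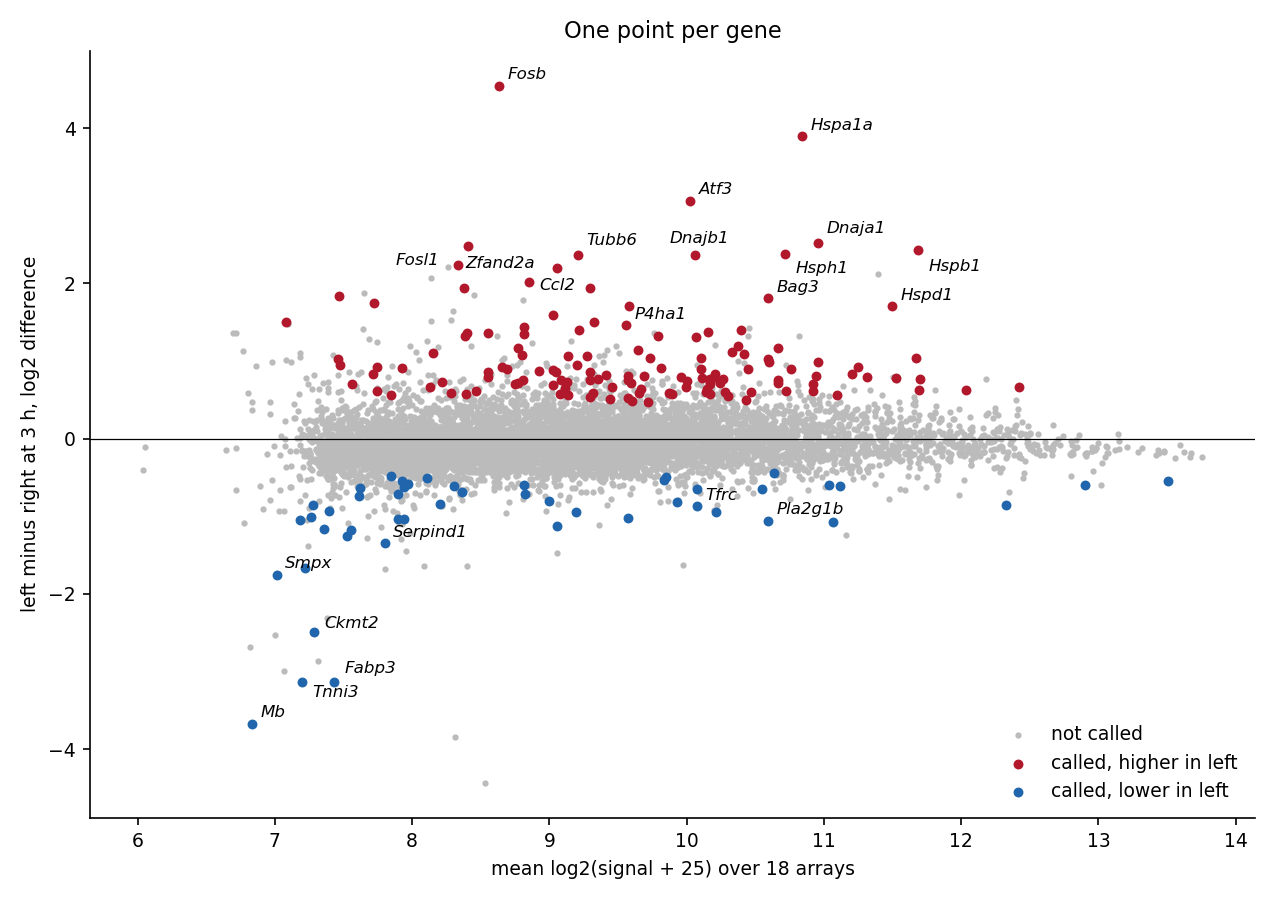
Mean level of each tested gene over all 18 arrays (horizontal axis, log2 of signal plus 25) against its log2 difference, left minus right at 3 h (vertical axis), with 1 point a gene. Red points are the 135 genes called higher in left lungs, blue points the 48 called lower, and grey points those not called, and the heat shock genes stand at the upper right, at both high level and large difference.

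Heat shock chaperones were the genes that differed most firmly. Of 28 tested genes of the heat shock and cytosolic chaperone list, 13 were higher in the clamped left lungs, where 1.75% of all genes were, and 27 had a positive difference. No member was called lower in limma, and none was lower at an unadjusted p under 0.05. The list median was 0.62, against -0.07 for all genes. Of the 13, 11 held without each of the 6 lungs in turn, and Hsp90ab1 and Hspe1 did not.

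Hspa1a, the inducible HSP70 that refolds damaged protein, had signals of 12648, 11284 and 11863 in the left lungs, against 596, 583 and 1340 in the right lungs. All left lungs were far above all right lungs, and the right lungs lay under the control range of 856 to 1452 or within it. The difference was 14.9-fold (log2 3.90 ± 0.31, SE; limma adjusted p = 1.9e-06). Rats carry a near-identical neighbour, Hspa1b, whose transcript may add to this signal. Dnaja1, an HSP40 co-chaperone that hands substrates to HSP70, had 8216, 5813 and 6821 in left lungs, against 1194, 1169 and 1184 in right lungs. The right lungs were nearly equal to each other and all under the lowest control (1360). The left-right difference was 5.72-fold (log2 2.52 ± 0.18, adjusted p = 5.2e-07), the smallest adjusted p among the genes named here, and right lungs were lower than control (log2 -0.46, adjusted p = 0.041). A second probe set of Dnaja1 gave log2 2.26.

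Dnajb1, the HSP40 that works most closely with inducible HSP70, had 4255, 2928 and 4666 in left lungs, against 631, 683 and 911 in right lungs. The groups were far apart, and the right lungs lay around the control range of 636 to 834. The difference was 5.15-fold (log2 2.36 ± 0.19, adjusted p = 2.1e-06). Hspb1, a small heat shock protein that holds unfolded protein and protects actin filaments, had 12667, 10933 and 11223 in left lungs, against 2047, 1565 and 3046 in right lungs. All 3 left lungs were above the highest control (3440), and the right lungs were among or under the controls. The difference was 5.37-fold (log2 2.42 ± 0.23, adjusted p = 8.7e-06). Hsph1, the HSP110 nucleotide exchange factor, had 8041, 6487 and 6065 in left lungs, against 1144, 1021 and 1834 in right lungs. Right replicate 3 was the highest right lung for Hspa1a, Dnajb1, Hspb1 and Hsph1. The Hsph1 difference was 5.20-fold (log2 2.38 ± 0.26, adjusted p = 6.6e-05).

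**Figure D2:**
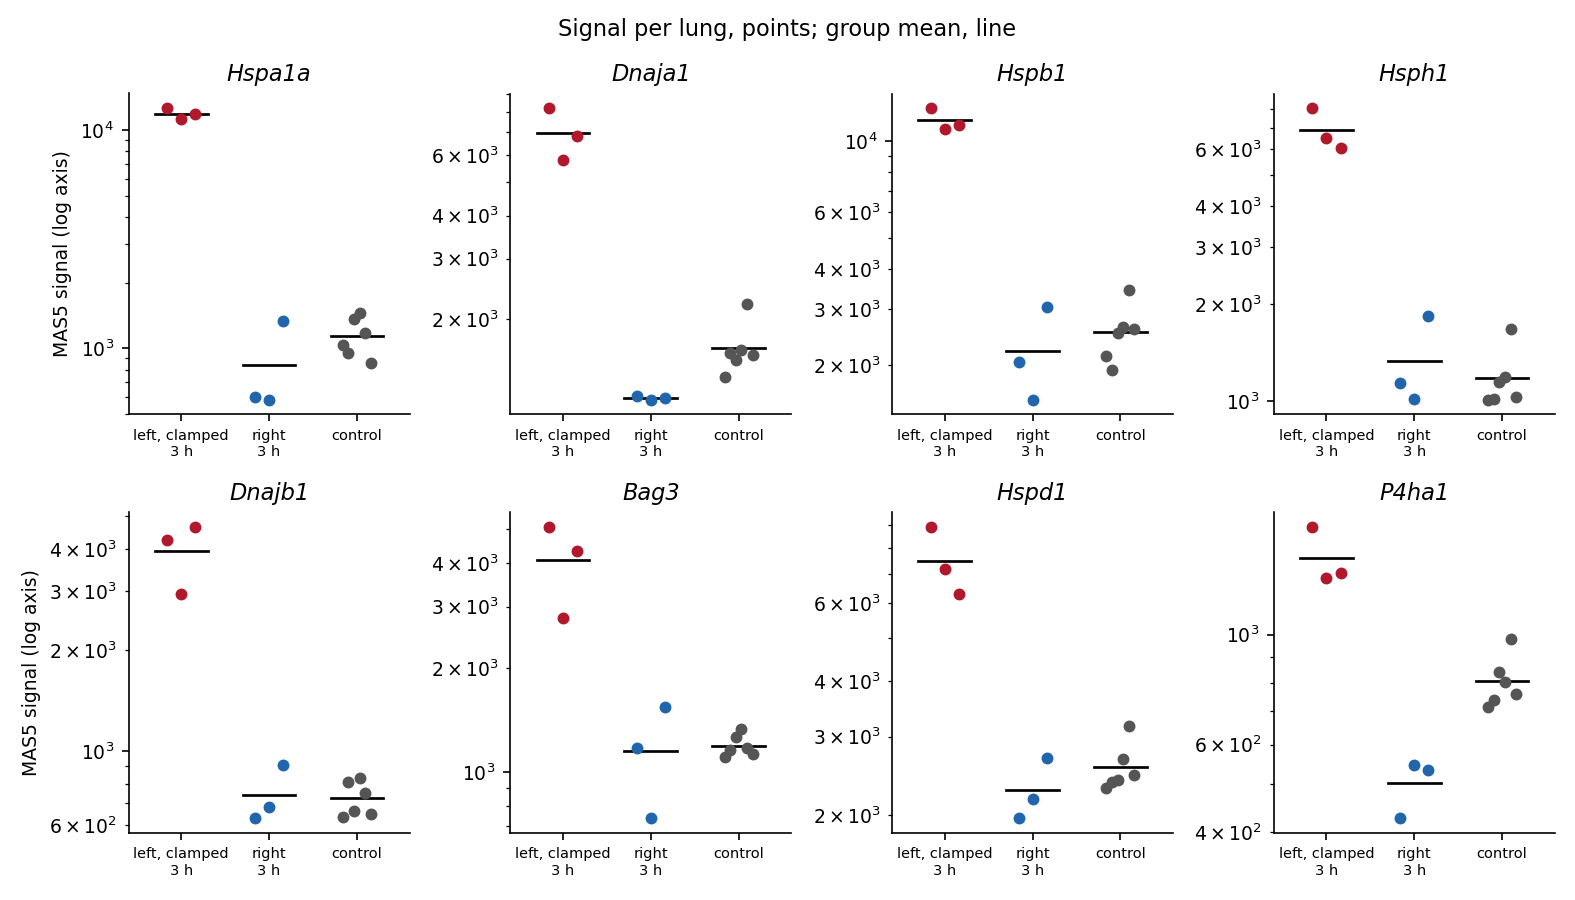
Signal of 8 genes in each lung (points, log axis in MAS5 signal units) in clamped left lungs at 3 h, right lungs at 3 h and controls, with the group mean as a line. In each panel all 3 left lungs lie above all 3 right lungs and all 6 controls, and for P4ha1 the right lungs (427 to 545) also lie below the controls (714 to 980).

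The promoters of these genes are printed because the members that moved together are known targets of HSF1. They are the 300 bases from 250 before to 50 after the annotated start in RefSeq's table on GRCr8, 5′ to 3′ on the gene's strand. The first 4 are the called heat shock genes of smallest adjusted p, and Hsph1 was added after its sequence was seen. Capitals mark the heat shock unit searched for, as a pair (GAANNTTC or TTCNNGAA) or a triple (GAANNTTCNNGAA or TTCNNGAANNTTC), on both strands, each triple holding 2 overlapping pairs. Dnaja1 lies at chr5:60638154-60638453 on the plus strand, Hspa1a at chr20:3859506-3859805 on the plus strand, Dnajb1 at chr19:41431092-41431391 on the minus strand, Hspb1 at chr12:26432252-26432551 on the minus strand and Hsph1 at chr12:10427118-10427417 on the plus strand.
Dnaja1: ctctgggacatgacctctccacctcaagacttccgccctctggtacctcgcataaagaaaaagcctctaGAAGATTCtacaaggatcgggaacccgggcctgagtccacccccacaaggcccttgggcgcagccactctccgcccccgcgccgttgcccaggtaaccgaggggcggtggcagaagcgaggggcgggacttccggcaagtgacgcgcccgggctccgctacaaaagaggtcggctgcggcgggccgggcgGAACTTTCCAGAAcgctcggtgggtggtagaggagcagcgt
Hspa1a: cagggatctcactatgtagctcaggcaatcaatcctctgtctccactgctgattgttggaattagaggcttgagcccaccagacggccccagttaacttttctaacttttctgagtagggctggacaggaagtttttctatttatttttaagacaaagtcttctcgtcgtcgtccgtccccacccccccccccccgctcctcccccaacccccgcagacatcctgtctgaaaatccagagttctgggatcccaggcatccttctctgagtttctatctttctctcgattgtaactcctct
Dnajb1: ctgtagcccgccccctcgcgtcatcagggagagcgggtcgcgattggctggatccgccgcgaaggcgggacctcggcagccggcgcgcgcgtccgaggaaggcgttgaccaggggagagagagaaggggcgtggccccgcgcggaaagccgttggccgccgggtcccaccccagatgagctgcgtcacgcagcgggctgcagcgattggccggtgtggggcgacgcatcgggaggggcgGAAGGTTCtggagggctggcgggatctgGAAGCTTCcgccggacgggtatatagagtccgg
Hspb1: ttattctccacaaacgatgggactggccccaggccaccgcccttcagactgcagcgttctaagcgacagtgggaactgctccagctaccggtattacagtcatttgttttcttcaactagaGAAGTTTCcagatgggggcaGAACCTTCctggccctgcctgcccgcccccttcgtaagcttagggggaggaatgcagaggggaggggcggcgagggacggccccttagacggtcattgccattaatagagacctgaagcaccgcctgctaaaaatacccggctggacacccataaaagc
Hsph1: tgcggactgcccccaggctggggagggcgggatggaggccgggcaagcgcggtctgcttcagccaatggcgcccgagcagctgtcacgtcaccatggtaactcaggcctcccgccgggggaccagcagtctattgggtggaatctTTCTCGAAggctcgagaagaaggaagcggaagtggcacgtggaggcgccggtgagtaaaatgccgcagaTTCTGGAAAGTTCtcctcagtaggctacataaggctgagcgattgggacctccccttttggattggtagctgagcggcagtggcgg
Dnaja1 has a separate pair and, at position 10 counted from the annotated start, a triple. Hsph1 has a separate pair and a triple at position -36. Dnajb1 and Hspb1 have 2 pairs each, and the window of Hspa1a holds neither form, which says only that these letters are not in this window. Of the 12 called heat shock genes with a promoter in the table, 5 held a triple (41.7%) and 9 a pair (75.0%). Among all 33469 promoters of the table the shares were 0.798% and 15.9%, and among the 6471 tested genes with a promoter 0.51% and 11.2%. Of 117 genes called higher with a promoter, 5 held a triple (4.27%), and all 5 were on the heat shock list. A pair was held by 14 of these 117 (11.97%), where 11.2% of tested genes held one. Of those 14, 9 were on the heat shock list. Of 40 called lower, 0 held a triple and 2 a pair. The other triples were in Chordc1 and in the overlapping divergent promoters of Hspd1 and Hspe1. The triples of Hspd1 and Hspe1 are the same bases read on opposite strands, and they are counted for both genes. Because the printed list members are known targets of HSF1, a higher share than among all promoters follows from that choice. It adds no support from these data, and the share among list members that were not called is not given. A match is a description of letters, not a site or a cause.

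Co-chaperones and mitochondrial chaperones followed with smaller differences. Bag3, which links HSP70 to selective autophagy, had 5092, 2778 and 4336 in left lungs, against 1177, 739 and 1547 in right lungs, with no overlap (3.51-fold, log2 1.81 ± 0.22, adjusted p = 0.00021). Hspd1, the mitochondrial HSP60, had 8940, 7182 and 6283 in left lungs, against 1965, 2165 and 2691 in right lungs, and left replicate 1 was the highest of the group (3.25-fold, log2 1.70 ± 0.21, adjusted p = 2e-04). Its partner Hspe1 averaged 4899 in left lungs and 2549 in right lungs (log2 0.92 ± 0.19, adjusted p = 0.016). The HSP90 co-chaperones differed as well. Chordc1 had 1577, 1353 and 774 in left lungs, against 476, 389 and 352 in right lungs (2.83-fold, adjusted p = 0.0027), and all 3 right lungs were under the lowest control (565). Stip1, which bridges HSP70 and HSP90, had 1936, 1435 and 1308 in left lungs, against 722, 719 and 773 in right lungs (log2 1.04 ± 0.15, adjusted p = 0.0014). Hsp90ab1 averaged 7576 in left lungs and 4789 in right lungs (log2 0.66 ± 0.16, adjusted p = 0.04). Dnaja4 and Dnajb4, further HSP40 genes, were 1.86-fold and 1.79-fold higher (adjusted p = 0.0014 and 0.0066), although the second probe set of Dnaja4 was not called (log2 0.37, adjusted p = 0.2).

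The rest of the list did not pass the test. The message of the regulator itself, Hsf1, had 330 to 384 in left lungs and 270 to 387 in right lungs (log2 0.07 ± 0.12, adjusted p = 0.78). The groups overlapped, and so did those of Hsf2 (log2 -0.03 ± 0.18). The 6 measured Cct subunits of the chaperonin that folds actin and tubulin had log2 differences of 0.07 to 0.37, and Tcp1 had 0.33. Hspa4 had a log2 difference of 0.33 ± 0.17 (adjusted p = 0.34), while both sides lay under the controls (log2 -1.03 in left and -1.35 in right lungs, adjusted p = 8.3e-05 and 1.2e-05). Hspb8 overlapped between the groups (714 to 1279 in left, 462 to 755 in right lungs). Cryab, a small heat shock protein outside the list, had 3414 to 4985 in left and 1835 to 2958 in right lungs (log2 0.84 ± 0.23, adjusted p = 0.066).

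The left-right difference of the chaperones was not detected at 30 min. The test of the change, the 3 h difference minus the 30 min difference, called 18 of 7728 genes, 16 of them more positive at 3 h (0.207%) and 2 more negative. Of the 18, 15 were also called at 3 h and 9 were on the heat shock list. At 30 min 4 probe sets in all were called between left and right lungs, 1 higher and 3 lower. Hspa1a had 1696 to 2203 in left and 892 to 2300 in right lungs at 30 min (log2 0.46 ± 0.31, adjusted p = 0.7), and its change by 3 h was 3.43 ± 0.44 (log2, adjusted p = 0.0014). For Dnaja1 the difference at 30 min was 0.03 ± 0.18, and the change was 2.48 ± 0.25 (adjusted p = 0.00014). The changes of Hspb1, Hsph1 and Dnajb1 were 2.40 ± 0.32, 2.30 ± 0.37 and 2.04 ± 0.27 (adjusted p = 0.0015, 0.0089 and 0.0015). Hspd1, Bag3, Stip1 and Dnaja4 changed by 1.76, 1.79, 1.19 and 1.01 (adjusted p = 0.011, 0.021, 0.021 and 0.023). Without the 3 arrays of high actin ratio, all of the 30 min groups, 5 probe sets remained of the 22 more positive ones. With the replicate number as a block among the operated lungs 4 remained, against 8 for the same arrays without the block.

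**Figure D3:**
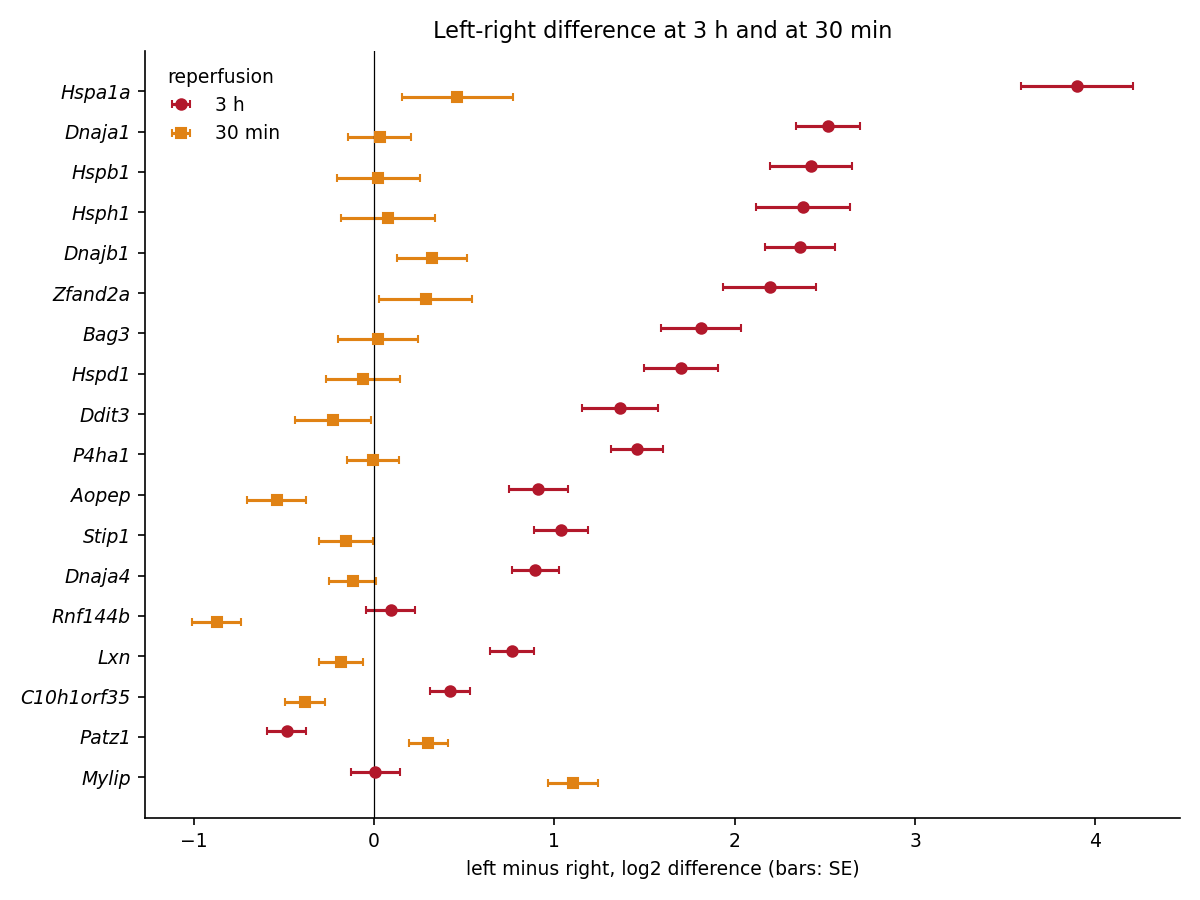
Log2 difference, left minus right, at 3 h (red circles) and at 30 min (orange squares) with standard errors for the 18 genes whose difference changed between the times. The heat shock genes at the top lie at 0.89 to 3.90 at 3 h and at -0.16 to 0.46 at 30 min, whereas Rnf144b and Mylip lie at 0.09 and 0.01 at 3 h and at -0.87 and 1.10 at 30 min.

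Several of the other genes of this test are stress genes outside the chaperone list. Zfand2a, an arsenite-inducible zinc finger protein tied to the proteasome, had 3703, 1788 and 1611 in left lungs, against 368, 389 and 685 in right lungs at 3 h. The groups were well apart and both lay above every control, whose median was 235. The difference was 4.57-fold (log2 2.19 ± 0.26, adjusted p = 0.00016), and it held without each lung in turn. P4ha1, the collagen prolyl hydroxylase subunit that hypoxia induces, had 1650, 1297 and 1328 in left lungs, against 427, 545 and 533 in right lungs (2.75-fold, log2 1.46 ± 0.14, adjusted p = 1.6e-05). Left lungs were above every control (714 to 980) and right lungs below every control. Against control, P4ha1 was higher in left lungs (log2 0.80, adjusted p = 0.00015) and lower in right lungs (log2 -0.66, adjusted p = 0.0016), in comparisons that share the control arrays. Aopep, an aminopeptidase, had 1111 to 1467 in left and 613 to 689 in right lungs at 3 h, and 598 to 885 in left and 937 to 1323 in right lungs at 30 min. The change passed the test (log2 1.45 ± 0.23, adjusted p = 0.0089), and the difference at 30 min did not (log2 -0.54 ± 0.17, adjusted p = 0.33). Rnf144b, a ubiquitin ligase, and Mylip, a ubiquitin ligase that acts on the LDL receptor, overlapped between left and right lungs at 3 h (log2 0.09 and 0.01). Mylip had 1222 to 1473 in left and 558 to 708 in right lungs at 30 min.

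Of 31 genes of the unfolded protein and integrated stress response, 6 were higher in left lungs in limma, where 1.75% of all genes were. None was lower, in limma or at an unadjusted p under 0.05. The list median was 0.29. Ddit3, the CHOP transcription factor of the integrated stress response, had 605, 531 and 597 in left lungs, against 229, 213 and 187 in right lungs. The spread within each side was small and the groups were apart, with the right lungs at or under the control range of 229 to 368. The difference was 2.58-fold (log2 1.36 ± 0.21, adjusted p = 0.0027), and it held without each lung in turn. Ppp1r15a, the GADD34 subunit that restores translation, had 2117 to 2656 in left and 680 to 1122 in right lungs (log2 1.38 ± 0.30, adjusted p = 0.023). Hspa5, the main chaperone of the endoplasmic reticulum, had 7711, 5624 and 5732 in left lungs, against 2424, 3578 and 3309 in right lungs (log2 1.03 ± 0.20, adjusted p = 0.014). The controls reached 4066, under every left lung. Atf4, Wars1 and Aars1 were 1.54-fold, 1.62-fold and 1.55-fold higher (adjusted p = 0.034, 0.0075 and 0.047). Of these 6 calls, 1 remained without left replicate 1, 2 without right replicate 1 and 3 without right replicate 2.

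Immediate early transcription factors had a list median of 0.79, with 8 of 28 members higher in left lungs, where 1.75% of all genes were. None was lower, in limma or at an unadjusted p under 0.05. Fosb, a partner in AP-1, had 1677, 1250 and 3547 in left lungs, against 33.0, 32.2 and 158 in right lungs. The lungs did not overlap, but the controls ran from 25.9 to 810 with a median of 99.9. All right lungs were under the low-signal limit of 174, so the mean signals of 2158 in left and 74.3 in right lungs are given in place of a fold (adjusted p = 0.034). Atf3, a stress-induced repressor, had 3988, 2308 and 4017 in left lungs, against 350, 276 and 548 in right lungs, and 161 to 1938 in controls (log2 3.07 ± 0.70, adjusted p = 0.032). Fosl1, the FRA1 subunit of AP-1, had 1693, 756 and 756 in left lungs, against 138, 153 and 319 in right lungs (log2 2.24 ± 0.44, adjusted p = 0.014), and every left lung was above every control (99.6 to 173). The other rises were those of Csrnp1 (log2 1.31 ± 0.33, adjusted p = 0.047), Srf (1.03 ± 0.20), Ier5 (0.90), Mafk (0.80) and Klf6 (0.78). Fos, Egr1, Jun, Junb and Myc did not pass the test in the probe sets used. Fos had 2671 to 3740 in left and 921 to 1990 in right lungs, Egr1 3268 to 6421 in left and 429 to 3074 in right lungs (adjusted p = 0.42 and 0.14), and Myc 1045 to 1504 in left and 257 to 846 in right lungs (adjusted p = 0.059). The 8 calls were lost without left replicate 1 and without right replicate 1, 2 remained without right replicate 2 and 4 without left replicate 3. Of 15 MAPK feedback and mRNA decay regulators 2 were higher, Plk2 (log2 1.04, adjusted p = 0.0075) and Gadd45b (0.72, adjusted p = 0.047), and all 15 differences were positive.

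NF-kB genes and cytokines were higher in left lungs with more scatter. Of 19 NF-kB pathway and target genes 8 were higher, where 1.75% of all genes were, with a list median of 0.57. None was lower, in limma or at an unadjusted p under 0.05. Birc3, an inhibitor of apoptosis, had 1639, 674 and 820 in left lungs, against 323, 305 and 492 in right lungs (log2 1.35 ± 0.27, adjusted p = 0.015), and left replicate 1 was the highest. The subunits Relb, Rela and Nfkb2 had log2 differences of 0.86, 0.76 and 0.75, the inhibitory partner Tnip1 0.76, and the adhesion molecule Icam1 0.62 with 4000 to 5186 in left and 2827 to 3135 in right lungs. The feedback inhibitor Nfkbia overlapped, with 5398 to 6304 in left and 4356 to 6265 in right lungs (adjusted p = 0.82). All 8 calls were lost without left replicate 1, without right replicate 1 or without right replicate 2, and 5 remained without left replicate 3. Among 23 cytokines and chemokines 3 were higher, against the 1.75% of all genes. Csf1, the growth factor of macrophages, had 685, 842 and 865 in left lungs, against 318, 306 and 407 in right lungs (log2 1.16 ± 0.21, adjusted p = 0.0081). It held without each lung in turn, which Ccl2 and Cxcl1 did not. Ccl2, which draws monocytes, had 3131, 782 and 921 in left lungs, against 337, 195 and 431 in right lungs (log2 2.02 ± 0.51, adjusted p = 0.045). Left replicate 1 alone was above 1000, and both lungs were above every control (46.8 to 161). Cxcl1, which draws neutrophils, had 2570 to 4456 in left and 835 to 1788 in right lungs (log2 1.40 ± 0.35, adjusted p = 0.043). Il6 had 3701, 626 and 699 in left lungs, against 200, 87.6 and 676 in right lungs, so the groups overlapped (adjusted p = 0.066). Both sides lay above every control (38.1 to 54.0). The neutrophil marker mean was 8.91 to 10.2 in left and 8.82 to 9.93 in right lungs, with 0 of 7 markers called in limma and 1 lower at an unadjusted p under 0.05. Left replicate 1 had the highest of these means and the highest Ccl2, Cxcl1 and Il6, and the part of neutrophils in these differences was not tested.

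**Figure D4:**
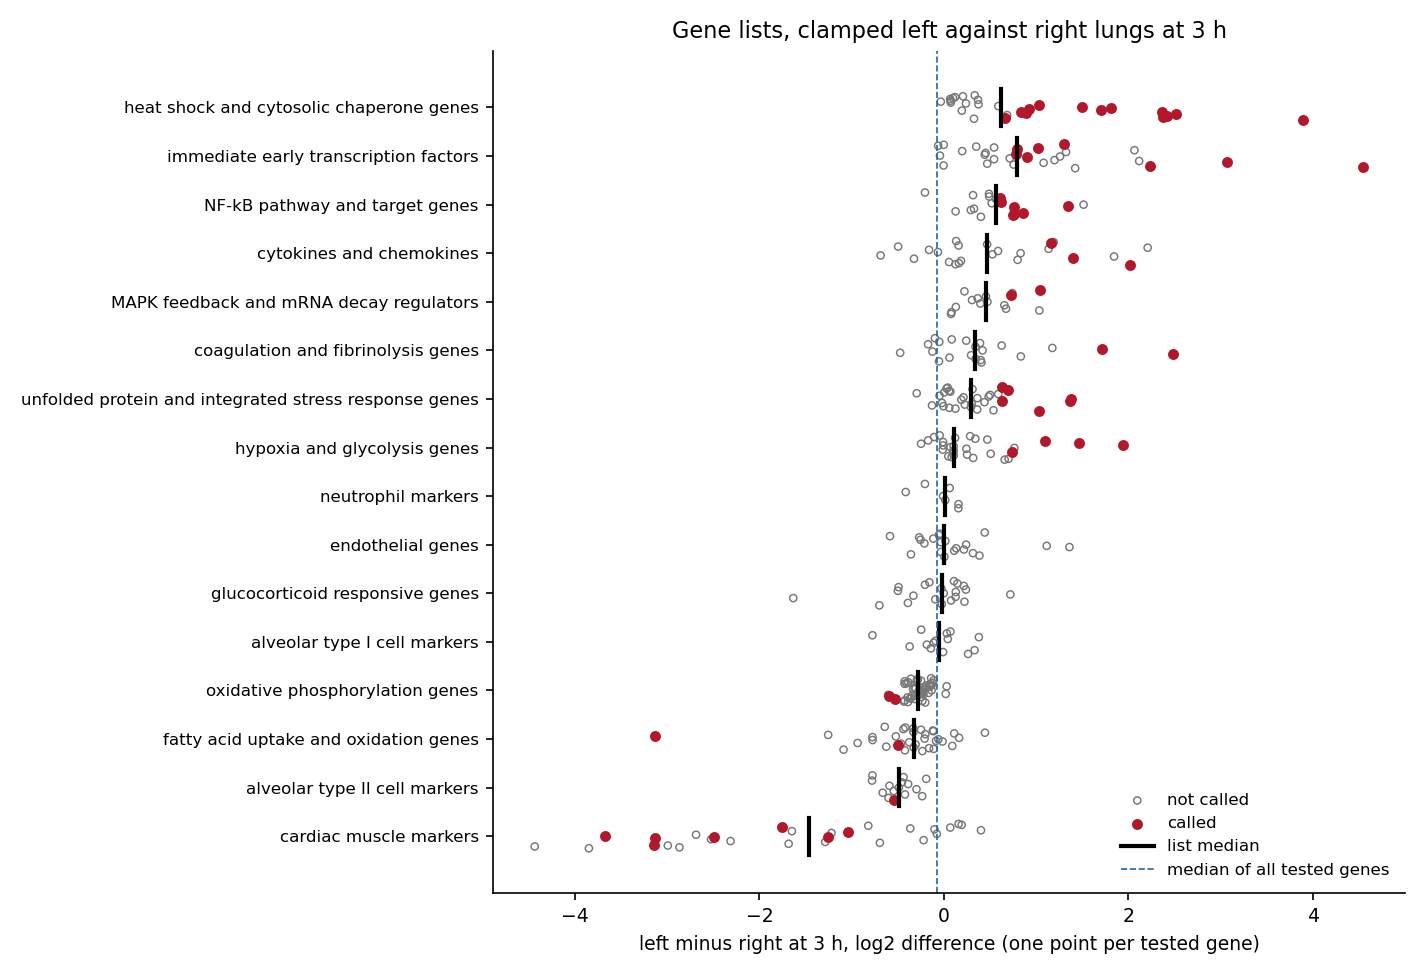
Log2 difference, left minus right at 3 h, for every tested member of 16 gene lists (points, filled where called), with the list median as a black bar and the median of all genes (-0.07) as a dashed line. Heat shock, immediate early and NF-kB lists lie to the right, with medians of 0.62, 0.79 and 0.57, and cardiac muscle markers to the left, with a median of -1.47.

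Among the remaining response lists a few named genes carried the calls, where 1.75% of all genes were called higher. Of 30 hypoxia and glycolysis genes 4 were higher: P4ha1, given above, the vasodilator peptide Adm (log2 1.94 ± 0.47, adjusted p = 0.038), Ndrg1 (1.09) and the glycolytic enzyme Tpi1 (0.74). Adm had 1467, 842 and 476 in left lungs, against 262, 138 and 220.3 in right lungs. Left replicate 1 was the highest and no lung overlapped. The glucose transporter Slc2a1 (adjusted p = 0.088), Ldha (0.5), Hk2 (0.9) and Vegfa (0.88) did not pass. Of 21 coagulation and fibrinolysis genes 2 were higher, Plau, the urokinase that activates plasminogen (889 to 2717 in left, 368 to 463 in right lungs, log2 1.71), and Tfpi2, a protease inhibitor (652 to 3287 in left, 85.3 to 700.2 in right lungs). The Tfpi2 groups overlapped, and a second probe set of Plau was not called. Tubb6, a tubulin, had 3359, 1611 and 1394 in left lungs, against 328, 214 and 662 in right lungs (log2 2.36 ± 0.47, adjusted p = 0.015), and Lmna and Actn1 of the same cytoskeleton list of 31 were higher by log2 1.12 and 0.56. Tnfaip6, a matrix-binding protein of inflammation, was 3.36-fold higher (adjusted p = 0.019), and Mdm2, the ligase that restrains p53, had 1391 to 1723 in left and 511 to 609 in right lungs (log2 1.40, adjusted p = 0.02), while the p53 target Cdkn1a overlapped (adjusted p = 0.72). Adm, Tfpi2, Plau, Tubb6, Tnfaip6 and Mdm2 were each lost without left replicate 1, right replicate 1 or right replicate 2. Outside the lists, the adhesion receptor Pvr (log2 1.94, adjusted p = 0.04) and the costimulatory receptor Cd40 (adjusted p = 0.012) were among the 15 largest rises, and both were lost without left replicate 1 or right replicate 1. Pvr had 1150 to 3277 in left and 274 to 991 in right lungs, and Cd40 had 300 to 481 in left and 41.4 to 110.0 in right lungs, neither overlapping.

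Several genes that set both operated lungs apart from controls did not pass the left-right test at 3 h. Mt2A, a metallothionein, had 12091, 10496 and 8444 in left lungs, against 10060, 5319 and 15293 in right lungs, and 376 to 959 in controls (left-right log2 0.13 ± 0.37, adjusted p = 0.88). The neutrophil alarmin S100a8 had 2040 to 5853 in left, 2276 to 3526 in right and 235 to 696 in control lungs (left-right log2 0.16 ± 0.46, adjusted p = 0.89). Both operated lungs were far above control in each gene, and left and right overlapped. The same held for Timp1, an inhibitor of matrix proteases, with 3370 to 9261 in left, 2183 to 7550 in right and 772 to 1013 in control lungs, and for tissue factor, F3, with 4741 to 6264 in left, 2936 to 6029 in right and 571 to 1593 in control lungs. Bmpr2, the BMP receptor, had 199 to 388 in left, 270 to 398 in right and 1311 to 2179 in control lungs. Prkaa2, a catalytic subunit of AMPK, had 6.54 to 9.17 in left, 9.44 to 11.2 in right and 102 to 321 in control lungs. None of these 6 genes was called between the sides. For Prkaa2 all operated lungs were far under the low-signal limit of 174, so its left-right test carries little information. Of 24 oxidative stress and NRF2 targets, Gsr, glutathione reductase, was lower (112 to 183 in left, 223 to 285 in right lungs, log2 -0.75, adjusted p = 0.049), and Hmox1 had 1844 to 4574 in left and 611 to 1559 in right lungs (adjusted p = 0.088). No glucocorticoid responsive gene of 21, clock gene of 12 or collagen, laminin and integrin gene of 29 was called in limma, and 2, 1 and 1 were lower at an unadjusted p under 0.05.

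In the alveolar type II, oxidative phosphorylation and fatty acid lists most differences were negative, and most members did not pass the test. Of all genes, 0.621% were called lower. Of 15 alveolar type II cell markers all 15 had a negative difference (median -0.49), 1 was called and 10 were lower at an unadjusted p under 0.05, where 9.86% of all genes were. Sftpa1, which encodes surfactant protein A, had 7456, 11419 and 10649 in left lungs, against 13212, 13765 and 15381 in right lungs. The groups did not overlap, with left lungs below the controls (11713 to 12728) and right lungs above them (left-right log2 -0.54 ± 0.13, adjusted p = 0.043). The call was lost without left replicate 1 or any single right lung, and when arrays were centred on their median. The median of the type II list was -0.30 without left replicate 1, with 14 of 15 negative. Sftpb had 4688 to 7842 in left and 8101 to 11302 in right lungs (adjusted p = 0.074). Abca3, the lipid transporter of surfactant bodies, overlapped (adjusted p = 0.21). Type I cell markers had a median of -0.05 and endothelial genes 0.00, with 0 of 14 and 0 of 21 called in limma (1 and 4 at an unadjusted p under 0.05). Of 49 oxidative phosphorylation genes 47 had a negative difference (median -0.28). Ndufa9 and Ndufb8, subunits of complex I, were lower (log2 -0.53 and -0.59, adjusted p = 0.032 and 0.035), and 20 were lower at an unadjusted p under 0.05, against the 9.86% of all genes. Of 34 fatty acid genes Hadha, of mitochondrial beta oxidation, and Fabp3 were lower. Hadha had 632, 749 and 686 in left lungs, against 954, 1068 and 925 in right lungs (log2 -0.50 ± 0.10, adjusted p = 0.016). The cardiac marker sum was also lower in left lungs, at 9579 to 10963 in left and 12664 to 29564 in right lungs. With the cardiac marker mean as a covariate the medians of the 2 mitochondrial lists were -0.21 and -0.19 and none of their 4 calls remained. That mean did not overlap between the sides (7.33 to 7.55 in left, 8.45 to 9.76 in right lungs), and Fabp3 is itself a member of it. In this fit the cardiac markers and the side cannot be told apart, and the part of muscle in these lists was not tested.

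Cardiac muscle genes were lower in left lungs than in right lungs, with the lowest median of the lists tested. Of 28 tested cardiac muscle markers 24 had a negative difference, with a median of -1.47, and 7 were called lower, where 0.621% of all genes were. At an unadjusted p under 0.05, 20 members were lower, those 7 included, where 9.86% of all genes were. Mb, myoglobin, had 15.97, 11.6 and 19.4 in left lungs, against 387, 1629 and 177 in right lungs, and 13.7 to 224 in controls. The left lungs were far under the low-signal limit of 174, so mean signals of 15.7 ± 3.92 in left and 731 ± 785 in right lungs (SD, n = 3 each) are given in place of a fold (adjusted p = 0.031). The troponin subunit Tnni3 had 32.03, 22.04 and 23.2 in left lungs, against 393, 1189 and 150 in right lungs. Right replicate 2 was the highest in both, and no lung overlapped. Fabp3 averaged 40.8 in left and 572 in right lungs, Ckmt2 49.8 in left and 458 in right lungs, and Smpx 53.6 in left and 261 in right lungs. Ckm averaged 111 in left and 291 in right lungs, and Ldb3 117 in left and 265 in right lungs. These 5 genes were also called, and their left lungs, too, were under the limit, so that the list median above describes values partly below it. The atrial light chain Myl7 had 53.3, 41.9 and 75.0 in left lungs, against 1514, 3963 and 840 in right lungs, and the controls ran from 39.96 to 1360, and it was not called (adjusted p = 0.063). Myh6, the atrial myosin, was likewise not called (45.8 to 73.0 in left, 614 to 1955 in right, 36.9 to 1162 in controls). Of 6 skeletal muscle markers 0 were called in limma, 1 was higher at an unadjusted p under 0.05, and their mean was 8.08 to 8.45 in left and 7.96 to 8.29 in right lungs (log2).

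**Figure D5:**
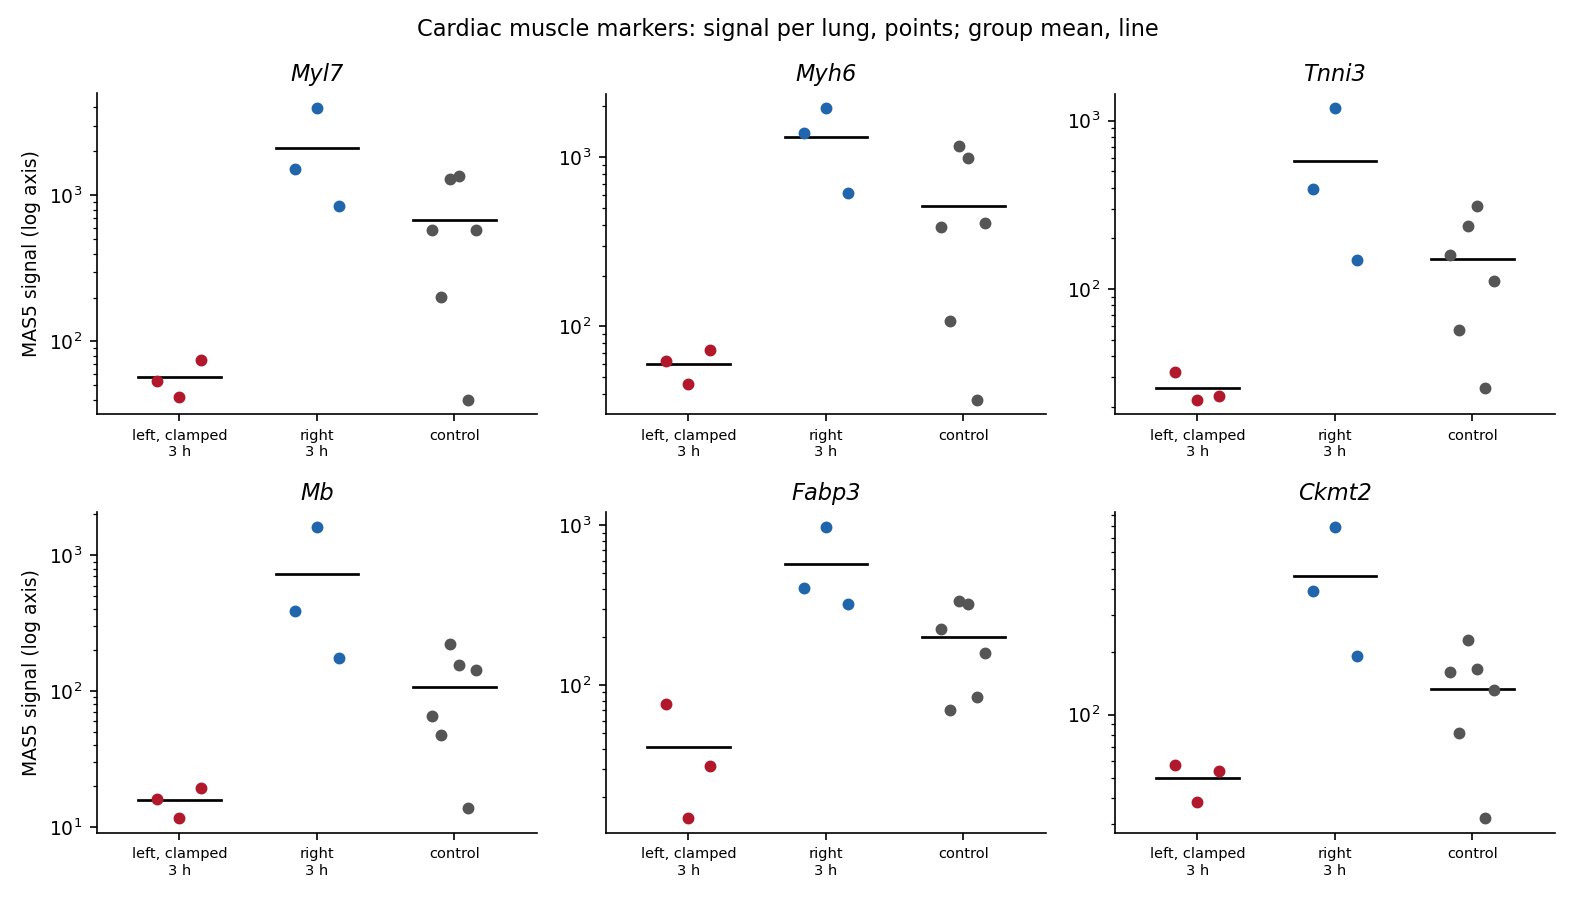
Signal of 6 cardiac muscle markers in each lung (points, log axis in MAS5 signal units) in clamped left lungs at 3 h, right lungs at 3 h and controls, with the group mean as a line. The left lungs lie below every right lung, and the controls of Myl7, from 39.96 to 1360, overlap both sides.

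The mean log2 of the 28 cardiac markers was 7.51, 7.33 and 7.55 in left lungs, against 9.04, 9.76 and 8.45 in right lungs. The controls ran from 7.33 to 8.78. Left and right lungs did not overlap, and the exact permutation test, two-sided, gave p = 0.1, the smallest that 3 against 3 allows (adjusted p = 0.75 over 15 array measures). All 7 calls were lost without left replicate 1, left replicate 2, right replicate 1 or right replicate 2. With the cardiac mean as a covariate Hspa1a had a log2 difference of 4.06 ± 0.43 (adjusted p = 0.00024) and Dnaja1 2.47 ± 0.25 (adjusted p = 0.00022), and 9 of the 13 heat shock calls remained. In that fit none of the 8 immediate early, 8 NF-kB, 6 unfolded protein and 3 cytokine calls remained, with list medians of 1.07, 0.64, 0.29 and 0.44. The same fit called 20 probe sets higher and 3 lower in all, against 173 and 67 without the covariate.

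Serpind1 and Pla2g1b were the 2 genes lower in left lungs with all arrays and without each of the 6 lungs in turn. Serpind1, the thrombin inhibitor heparin cofactor II, had 93.0, 123 and 221 in left lungs, against 457, 298 and 432 in right lungs. The left lungs lay around the controls (128 to 170), and all right lungs were above them (left-right 2.55-fold lower, log2 -1.35 ± 0.21, adjusted p = 0.0027). Right lungs exceeded control by log2 1.25 (adjusted p = 0.00015). All controls and left replicates 1 and 2 were under the low-signal limit of 174, so these sizes carry little information. Pla2g1b, a secreted phospholipase A2, had 744, 1248 and 1262 in left lungs, against 1976, 2143 and 2586 in right lungs, and 1348 to 1631 in controls. Left lungs were thus all below and right lungs all above the controls (left-right log2 -1.06 ± 0.18, adjusted p = 0.0066). The calls of Serpind1 and Pla2g1b were lost with the replicate block and with the 6 arrays of 3 h alone. That of Pla2g1b was also lost with the cardiac covariate. Kcnj15, a potassium channel, had 1176, 2053 and 1015 in left lungs, against 2569, 2510 and 3666 in right lungs (log2 -1.07 ± 0.22, adjusted p = 0.016), and Car5b, a mitochondrial carbonic anhydrase, had 598, 573 and 522 in left lungs, against 960, 1075 and 1571 in right lungs (log2 -1.03 ± 0.22, adjusted p = 0.021). In both genes every right lung was above every control, whose highest values were 1926 and 780, and both calls were lost without left replicate 1. Tfrc, the transferrin receptor, had 1147, 948 and 792 in left lungs, against 1657, 1487 and 2198 in right lungs (log2 -0.87 ± 0.19, adjusted p = 0.026). Both sides were above every control (597 to 737), and a second probe set was not called. Vipr1, the receptor of vasoactive intestinal peptide, and Gucy1b1, a subunit of the nitric oxide receptor, were lower by 1.93-fold and 1.56-fold (adjusted p = 0.047 and 0.044). Vtn, vitronectin, had 209 to 252 in left and 457 to 628 in right lungs (log2 -1.12 ± 0.27, adjusted p = 0.035).

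Beyond the lists, 6 more genes were higher in left lungs with all arrays and without each lung in turn, and were named for that after their values were seen. Ifrd1, a transcriptional coregulator, had 3456, 2438 and 2674 in left lungs, against 1406, 865 and 1486 in right lungs (log2 1.20, adjusted p = 0.0034). Lmcd1, a LIM domain cofactor, and Pelo, which rescues stalled ribosomes, differed by log2 1.32 and 1.07 (adjusted p = 0.0063 and 0.0027). Tmbim1, Cacul1 and Strn3, the last a subunit of a phosphatase complex, differed by log2 0.99, 0.78 and 0.76 (adjusted p = 0.0033, 0.0014 and 0.0027). Other well-known genes missed the threshold despite wide gaps. Areg, a ligand of the EGF receptor, had 1350 to 1624 in left and 212 to 659 in right lungs without overlap (log2 1.78, adjusted p = 0.08), and 0 of 10 genes of that list were called in limma, with 3 higher and 1 lower at an unadjusted p under 0.05. Of 15 cytokine and chemokine receptors 0 were called in limma, with 2 higher at an unadjusted p under 0.05.

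For Tardbp and Lxn the right lung lay farther from control than the left. Tardbp, which encodes the RNA-binding protein TDP-43, had 913, 832 and 707 in left lungs, against 449, 423 and 492 in right lungs, and 897 to 1069 in controls. The left-right difference was 1.75-fold (log2 0.81 ± 0.12, adjusted p = 0.0016). For left lungs the difference from control was log2 -0.20 (adjusted p = 0.13), and right lungs were lower than control (log2 -1.01, adjusted p = 5.9e-06). Lxn, the carboxypeptidase inhibitor latexin, had 689.7, 623 and 698 in left lungs, against 368, 377 and 406 in right lungs, and 723 to 967 in controls. Both sides were below control, right lungs more so (log2 -0.31 in left and -1.07 in right lungs, adjusted p = 0.028 and 4.3e-06), and the left-right difference was log2 0.77 ± 0.12 (adjusted p = 0.0027). Both held without each lung in turn, and both were named after their values were seen.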

How the data were processed

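RNA from 18 frozen rat lungs was measured on 1 Affymetrix rat expression array each. The deposited values are linear MAS5 signal intensities per probe set, per the submitters' processing notes. Their mean after trimming 2% at each end was 500.1 on every array, so the authors' scaling was kept. Of 15866 probe sets that are not controls, 10533 with at least 3 arrays above the 40th percentile (174) were tested. Platform annotation gave 1 symbol to 12783 probe sets, several to 312 and none to 2771. A gene is its tested single-symbol probe set of highest mean. Group means of log2(signal + 25) over all 18 arrays were fitted in limma 3.58.1 (R 4.3.3), with Benjamini-Hochberg adjustment over all tested probe sets and a threshold of 0.05. Marker means and other values with 1 number an array were set against each other in a two-sided exact permutation test (scipy 1.17.1). The fit was tested on simulated data with arrays drawn independently of each other. That simulation cannot cover left and right lungs that share a rat.

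Depth has no meaning for arrays, and their number limits the precision. Left and right lungs of a time share rats, but the labels do not say that a number marks a rat. For this reason the 3 h comparison was not paired, and low correlations between same numbers cannot show that the lungs are independent. The correlations of deviations between same-numbered 3 h lungs were -0.17, 0.07 and -0.15, against -0.24 to 0.34 for unlike numbers. Those of the same-numbered 30 min lungs were 0.12, 0.31 and 0.15, against -0.29 to 0.10 for unlike numbers, so the test of the change is also given with the replicate block. In the main fit, limma p-values rest on the spread within groups over all arrays, with controls and 30 min lungs included. They do not measure the spread of the compared 3 h lungs alone, and the fit treats lungs of the same rat as independent.

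Named genes were the 15 largest rises and falls without overlap, the called members of each list with the smallest adjusted p, the genes of the time test and well-known members that were not called. Genes called in every omission of a lung were added after their values were seen. Members and lists were chosen with earlier results of these data known. Alternatives were pseudocounts of 5 and 50, no filter, median centring, quantile normalization, a replicate block, the 6 arrays alone, 3 arrays of high actin ratio left out, a cardiac covariate and each lung left out. Promoters came from RefSeq on GRCr8.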

Additional observations from a re-analysis of the deposited data

Results flagged for a closer look

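The difference between left and right lungs was not the same at the 2 times for 18 genes, by the limma test of the change (3 h minus 30 min, log2). The changes of the heat shock genes were 3.43 for Hspa1a, 2.48 for Dnaja1, 2.40 for Hspb1, 2.30 for Hsph1, 2.04 for Dnajb1, 1.79 for Bag3, 1.76 for Hspd1, 1.19 for Stip1 and 1.01 for Dnaja4. The other positive changes were 1.91 for Zfand2a, 1.59 for Ddit3, 1.46 for P4ha1, 1.45 for Aopep, 0.96 for Rnf144b, 0.95 for Lxn and 0.81 for C10h1orf35. The negative changes were -0.79 for Patz1 and -1.09 for Mylip. All 3 h lungs of Patz1 and all right 3 h lungs of C10h1orf35 were under the low-signal limit of 174. For Rnf144b, C10h1orf35 and Mylip the left-right test at 3 h was not passed, and the left-right difference at 30 min was -0.87, -0.38 and 1.10.

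In the 6 controls, 1 lung lay far from the others for 8 of 58 measures tested, where chance gives about 1 in 20 for a single measure. The measures come from the same 6 lungs and are not independent. The count therefore cannot be judged against that rate. The far lung need not be the same lung in each measure. It was the highest control for Dnaja1 (signal 2222), Hsph1 (1677), S100a8 (696) and Tardbp (1069). For Csf1 (265), Tubb6 (109), Prkaa2 (102) and the mean of the mast cell and basophil markers (7.70, log2) the far lung was the lowest.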

How the results depend on the processing

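At 3 h 173 probe sets were higher and 67 lower in left lungs. Counts were 106 and 32 with no filter on low signals, 226 and 40 with median centring, 153 and 43 with quantile normalization, 19 and 8 with the 6 arrays alone, and 20 and 3 with the cardiac covariate. A replicate block gave 15 higher and 0 lower, against 28 and 2 for the same operated arrays without it. Leaving out single lungs gave 32 to 259 higher and 3 to 202 lower. For the change between the times, 22 more positive and 2 more negative, the replicate block gave 4 and 0 (8 and 0 without it), the cardiac covariate 11 and 0, and leaving out 3 arrays of high actin ratio 5 and 0. No filter and a pseudocount of 50 each gave 1 more negative. Leaving out single lungs gave 10 to 24 more positive and 0 to 6 more negative. Of 75 named genes called at 3 h, 66 and 75 kept the call with pseudocounts of 5 and 50, 45 with no filter, 65 with centring, 58 with quantile normalization, 63 without the 3 arrays, 16 with the 6 arrays alone, 10 with the block, 10 with the covariate, and 14 to 70 without single lungs. None reversed in these settings. The cause was not tested, except that the block, the 6 arrays alone and omissions leave fewer samples or degrees of freedom. Low signals, such as those of cardiac markers in left lungs, carry little information on size.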
